A study of Mus musculus with 8 samples.

Results

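The 10 genes described here are the Wnt ligands Wnt4, Wnt5a, Wnt10b and Wnt16, the co-receptors Lrp4, Lrp5 and Lrp6, and the canonical Wnt target genes Axin2, Lef1 and Tcf7. They were chosen by symbol from the 24421 genes listed in every RNA-seq library, and all 10 were found. RNA came from osteoblastic cells of the calvaria, the flat bones of the skull, of newborn C57BL/6 mice. The 4 groups were WT cells at day 0, WT cells at day 12, Def6-/- cells at day 0 and Def6-/- cells at day 12 of culture in osteogenic medium, which holds ascorbic acid and β-glycerophosphate. Each group had 2 libraries, described in the methods as biological replicates, and WT cells were from littermates. Def6-/- is a germline deletion that every cell carries, so it is not restricted to osteoblasts, and the cultures were primary cells that had not been depleted of blood cells.

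Wnt ligands are secreted, lipid-modified proteins that bind Frizzled receptors. In the canonical branch, Lrp5 or Lrp6 joins the ligand and Frizzled, the complex that degrades β-catenin is inhibited, and β-catenin enters the nucleus, where it acts with factors of the TCF/LEF family. Axin2 encodes a part of that degradation complex and is itself a widely used readout of the pathway, while Lef1 and Tcf7 encode TCF/LEF factors. In bone, loss of Lrp5 is known to lower bone mass, and sclerostin, the product of Sost, is an inhibitor of this pathway made by osteocytes.

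Reads assigned to genes numbered 2414856 to 3482835 per library. The deleted gene had 112 to 186 reads in the 4 WT libraries and 0 to 2 in the 4 Def6-/- libraries. WT day 0 replicate 1 stood apart: 2390 of the tested genes differed by over 1 log2 unit between the WT day 0 replicates, against 261 to 454 in the other groups. In that library 34.9% of reads were multimapped, against 21.5% to 26.6% in the other 7. Its values were low for genes with long exons: the median of replicate 1 minus replicate 2 was 0.58 log2 units among the 2982 genes with the shortest exons (up to 2.92 kb) and -0.48 among the 2981 with the longest (7.01 kb and more), while these medians lay between -0.074 and 0.074 in the other 3 groups. For the 10 genes, results that rest on this library are given with and without it. Where either WT day 0 library is left out, the group has 1 library, which is assumed to vary like the other groups, and the discordant pair no longer adds to the spread: calls between days in WT cells then rose from 12.7% higher and 5.63% lower of all tested genes to 15.4% and 9.64% without replicate 1, and to 24.6% and 21.6% without replicate 2. In bulk RNA, fewer cells of a type and less RNA per cell cannot be told apart.

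Promoter windows were available for 6 of the 10 genes, in 10 windows from RefSeq (GRCm38.p6), and their 250 bases before each start were searched on both strands. The words searched were CTTTGAA or CTTTGAT and likewise CTTTGTA or CTTTGTT for TCF/LEF factors, TGTGGT and TGCGGT for RUNX factors, TGACTCA and TGAGTCA for AP-1, GGGCGG for the GC box, TATAAA for the TATA box and CCAAT for the CCAAT box. Shown are Wnt16, the ligand that rose most, Axin2, the target whose groups overlapped throughout, and the Lef1 window that was the only one of the 10 with a TCF/LEF word. Capitals mark the matched words. The Wnt16 window (chr6:22287977-22288226, + strand) and the Axin2 window (chr11:108920099-108920348, + strand) lie just before the annotated genes, and the Lef1 window (chr3:131156044-131156293, + strand) lies within Lef1, outside its annotated exons.
Wnt16: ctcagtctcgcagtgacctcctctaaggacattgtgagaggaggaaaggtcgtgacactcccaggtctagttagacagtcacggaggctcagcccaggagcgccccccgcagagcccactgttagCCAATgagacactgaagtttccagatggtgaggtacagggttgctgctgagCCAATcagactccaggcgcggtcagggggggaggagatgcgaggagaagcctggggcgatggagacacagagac
Axin2: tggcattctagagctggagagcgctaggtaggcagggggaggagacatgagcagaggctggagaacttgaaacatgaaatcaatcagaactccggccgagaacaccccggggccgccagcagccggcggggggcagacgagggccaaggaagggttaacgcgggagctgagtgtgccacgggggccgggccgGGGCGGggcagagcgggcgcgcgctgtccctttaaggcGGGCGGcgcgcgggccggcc
Lef1: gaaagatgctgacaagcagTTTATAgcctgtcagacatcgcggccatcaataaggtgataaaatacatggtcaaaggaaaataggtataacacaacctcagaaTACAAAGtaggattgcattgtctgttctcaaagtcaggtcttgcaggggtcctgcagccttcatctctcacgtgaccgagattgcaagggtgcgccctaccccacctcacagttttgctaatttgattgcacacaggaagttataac
The Wnt16 window held 2 CCAAT words, 125 and 74 bases before the start, and its GC content was 59.2%. The Axin2 window held 2 GC boxes, 58 and 20 bases before the start. The Lef1 window held TACAAAG, the reverse complement of a TCF/LEF word, 147 bases before the start, and a TATA word on the reverse strand. Neither of the Tcf7 windows held a TCF/LEF word. Over all 32851 windows in the table, 14.8% held a TCF/LEF word, 33.8% a CCAAT word, 32.7% a GC box and 12.4% a TATA word. A RUNX word, found in 18.6% of all windows, was present in 1 member window, that of Wnt10b. AP-1 words were in 4.46% of all windows and in none of the 10.

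Wnt16 rose between day 0 and day 12 in both genotypes, and it was the only one of the 4 ligands to do so. Wnt16 (chr6:22288227-22298522, + strand in GENCODE vM21, mm10) encodes a ligand made by osteoblasts that is known for its part in cortical bone. Values are normalized CPM, reads scaled to the reads on genes of each library and to TMM factors. In WT cells Wnt16 had 0.395 and 2.47 normalized CPM at day 0 (1 and 7 reads) and 16.1 and 20.1 at day 12 (56 and 48 reads). Def6-/- cells had 0.752 and 1.02 normalized CPM of Wnt16 at day 0 (2 and 3 reads) and 18.9 and 18.4 at day 12 (46 and 43 reads). Every day 12 library was above every day 0 library. Within a genotype, 29.3% of tested genes were placed in this way in WT cells and 35.2% in Def6-/- cells.

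**Figure D1:**
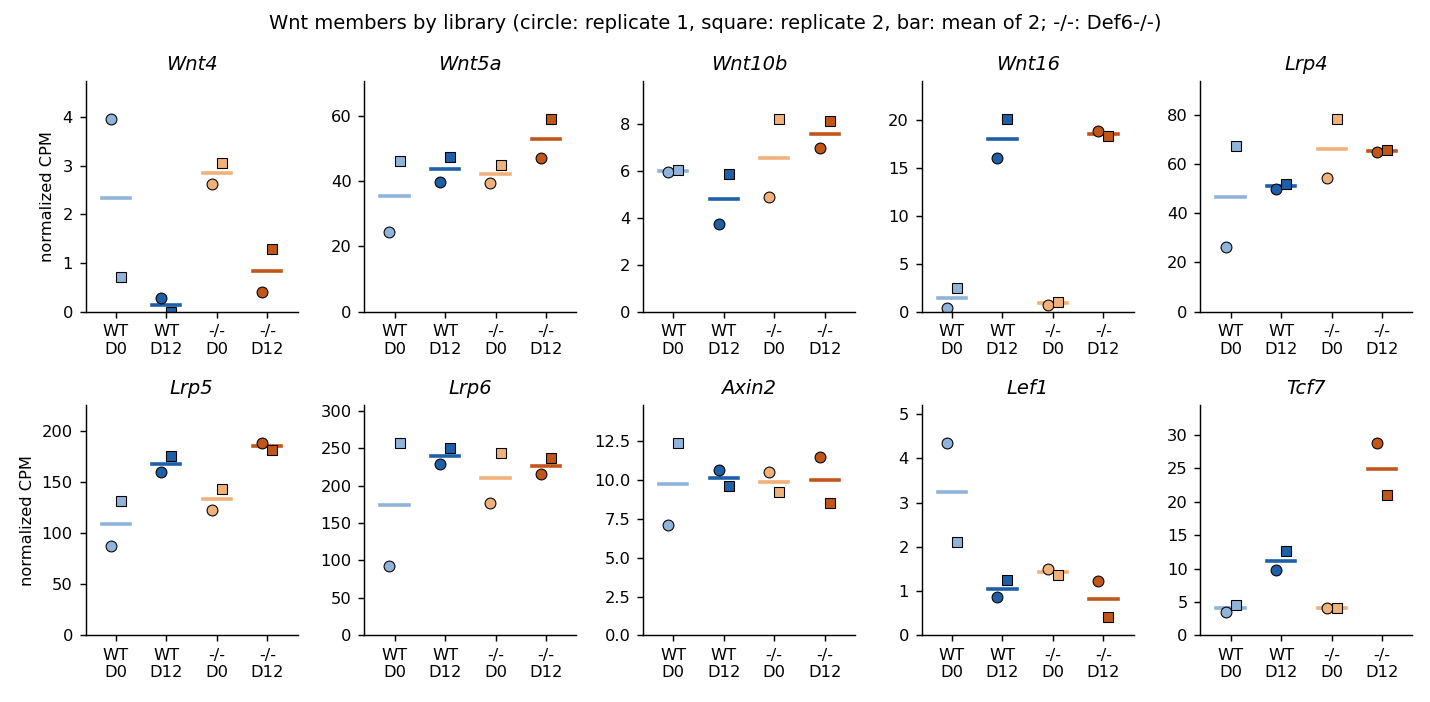
Normalized CPM (y axis) of each of the 10 genes in the 4 groups (x axis), with a circle for replicate 1, a square for replicate 2 and a bar for the mean of 2. Wnt16 and Tcf7 were higher at day 12 than at day 0 in all libraries, Axin2 groups overlapped, and the 2 WT day 0 libraries lie far apart for Wnt5a, Lrp4 and Lrp6.

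Differences were fitted with limma on log2(normalized CPM + 1) over all 8 libraries, and a change between days was called at a Benjamini-Hochberg adjusted p under 0.05 over 12348 genes. By this rule 12.7% of all tested genes rose in WT cells and 12% rose in Def6-/- cells. Tested genes had a mean of at least 1 CPM as deposited in at least 1 group. Wnt16 reached this only at day 12, at 5.66 in WT and 6.17 in Def6-/- cells, against 0.496 and 0.313 at day 0. It thus entered the test through the groups where it is high. The log2 change of Wnt16 was 3.11 ± 0.43 (SE) in WT cells (limma, adjusted p = 0.00167) and 3.38 ± 0.43 in Def6-/- cells (limma, adjusted p = 0.00113). On this scale that is 8.62-fold (95% interval 4.36 to 17.1) and 10.4-fold (5.27 to 20.6). Since day 0 reads were few, the ratio of summed reads is also given: it was 11.9 in WT cells (95% exact interval 5.81 to 28.2) and 20.8 in Def6-/- cells (8.61 to 65.8), intervals that cover counting error only. Without WT day 0 replicate 1 the WT log2 change was 2.45 and without WT day 0 replicate 2 it was 3.77, with the call kept in both. The day change did not differ detectably between the genotypes, with a difference of 0.27 log2 units (95% interval -1.12 to 1.66, limma, adjusted p = 1.0).

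Wnt4 (chr4:137277489-137299726, + strand) was at the other end, near the limit of detection. Wnt4 had 3.95 and 0.707 normalized CPM in WT day 0 libraries (10 and 2 reads) and 0.287 and 0 in WT day 12 libraries (1 and 0 reads). Def6-/- cells had 2.63 and 3.06 normalized CPM at day 0 (7 and 9 reads) and 0.411 and 1.28 at day 12 (1 and 3 reads). All day 12 libraries of a genotype were below its day 0 libraries, and 26.6% of tested genes were placed in this way in WT cells and 32.4% in Def6-/- cells. Neither change was called, with a log2 change of -1.36 ± 0.55 in WT cells (limma, adjusted p = 0.124) and -1.10 ± 0.55 in Def6-/- cells (limma, adjusted p = 0.218). From summed reads, the day 0 level was 13.1 times the day 12 level in WT cells (counting interval 1.94 to 562) and 3.42 times in Def6-/- cells (1.10 to 14.0). Wnt4 entered the test only through its highest group, where the mean CPM as deposited just reached the filter of 1. The WT log2 change was -0.59 without WT day 0 replicate 1 and -2.13 without WT day 0 replicate 2, so its size depends on which of these libraries is used.

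Wnt5a, the main ligand of the non-canonical branch, was the most abundant of the 4 ligands per length in every group and was not called between days. Wnt5a (chr14:28504750-28527448, + strand) had 24.5 and 46.3 normalized CPM in WT day 0 libraries and 39.9 and 47.3 in WT day 12 libraries. Def6-/- libraries had 39.5 and 45.0 normalized CPM at day 0 and 47.2 and 58.9 at day 12. The log2 change was 0.36 in WT cells (95% interval -0.32 to 1.03) and 0.32 in Def6-/- cells (-0.36 to 0.99). Without WT day 0 replicate 1 the WT value was -0.089, and without WT day 0 replicate 2 it was 0.80 and was called (limma, adjusted p = 0.0092).

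Wnt10b, a canonical ligand known to favour osteoblast over adipocyte fate, showed no called change. Wnt10b (chr15:98770712-98778150, - strand) had 5.92 and 6.01 normalized CPM in WT day 0 libraries and 3.73 and 5.86 in WT day 12 libraries. The Def6-/- values were 4.89 and 8.17 normalized CPM at day 0 and 6.98 and 8.11 at day 12. The WT groups did not overlap but lay close to each other, with day 12 lower, as for 26.6% of tested genes. The log2 change was -0.29 in WT cells (95% interval -1.07 to 0.49) and 0.21 in Def6-/- cells (-0.57 to 0.996). These values rest on 13 to 24 reads per library.

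None of the 3 LRP genes was called between days. Lrp5 came nearest: Lrp5 (chr19:3584828-3686564, - strand) had 87.7 and 130.7 normalized CPM in WT day 0 libraries and 159 and 175 in WT day 12 libraries. The Def6-/- libraries had Lrp5 at 122 and 143 normalized CPM at day 0 and 188 and 181 at day 12. Every day 12 library was above every day 0 library of its genotype, as for 29.3% of tested genes in WT cells and 35.2% in Def6-/- cells. The log2 change was 0.64 ± 0.22 in WT cells (limma, adjusted p = 0.0749) and 0.48 ± 0.22 in Def6-/- cells (limma, adjusted p = 0.178). The Def6-/- change stayed at 0.48 without either WT day 0 library, because it does not use them. Such fits changed only the spread shared over genes. With only the Def6-/- groups in the fit the Def6-/- change was called (limma, adjusted p = 0.0184). That fit called 18.3% of all tested genes higher, against 12% in the reported fit. The WT change was 0.35 without WT day 0 replicate 1 and 0.92 without WT day 0 replicate 2, so its size depends on which of these libraries is used.

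Lrp6, the close relative of Lrp5, and Lrp4, a receptor that binds sclerostin, overlapped between days in both genotypes. Lrp6 (chr6:134446476-134566965, - strand) had 92.8 and 256 normalized CPM in WT day 0 libraries, 228 and 250 in WT day 12 libraries, 176 and 243 in Def6-/- day 0 libraries and 215 and 237 in Def6-/- day 12 libraries. Lrp4 (chr2:91457511-91513779, + strand) had 26.1 and 67.1, then 49.9 and 51.9, then 54.2 and 78.0, then 64.9 and 65.7 normalized CPM in the same order. The spread of the WT day 0 pair covered the values of the other 3 groups for Lrp6. For Lrp6 the log2 change was 0.63 in WT cells (95% interval -0.28 to 1.53) and 0.13 in Def6-/- cells (-0.78 to 1.03). For Lrp4 it was 0.27 in WT cells (-0.59 to 1.14) and 0.0064 in Def6-/- cells (-0.86 to 0.88). The WT values turned to -0.10 for Lrp6 and -0.39 for Lrp4 without WT day 0 replicate 1, and to 1.35 and 0.94, both called, without WT day 0 replicate 2 (limma, adjusted p = 0.000115 and 0.00383). The exons of Lrp4, Lrp5 and Lrp6 span 10.5, 9.74 and 13.7 kb, all within the longest of these 4 length classes.

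**Figure D2:**
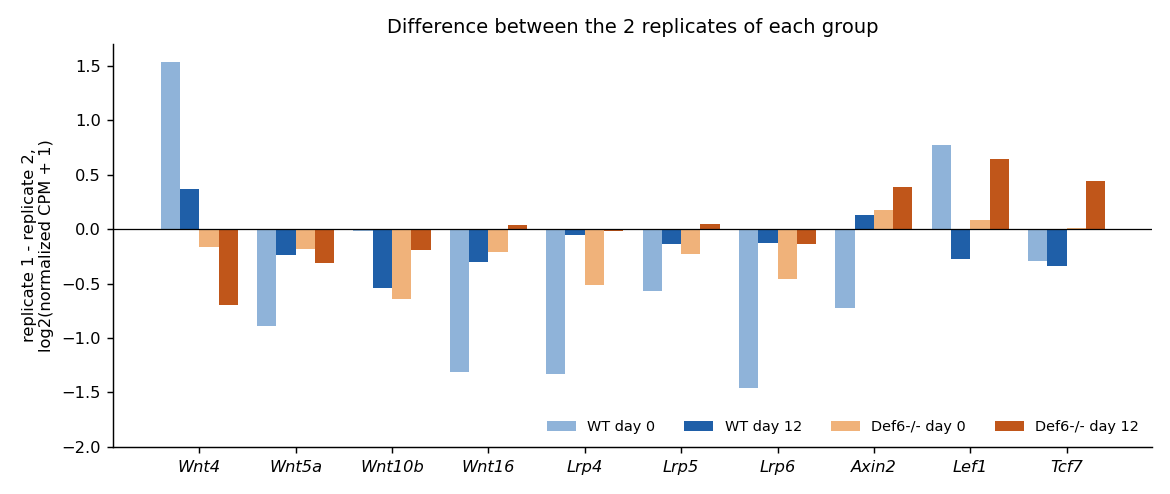
Difference between replicate 1 and replicate 2 in log2(normalized CPM + 1) (y axis) for each gene (x axis), 1 bar per group. In WT day 0 cells replicate 1 was lower by 1.46 log2 units for Lrp6 and by 1.33 for Lrp4, while in the other 3 groups the difference for these 2 genes was between -0.52 and -0.019.

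Among the 3 target genes, Tcf7 rose in both genotypes and Axin2 was not called in either. Tcf7 (chr11:52252371-52283014, - strand) encodes TCF-1, a TCF/LEF factor best known from T cells. In WT cells Tcf7 had 3.55 and 4.59 normalized CPM at day 0 (9 and 13 reads) and 9.76 and 12.6 at day 12 (34 and 30 reads). In Def6-/- cells it had 4.14 and 4.09 normalized CPM at day 0 (11 and 12 reads) and 28.7 and 20.9 at day 12 (70 and 49 reads). The day 0 libraries of both genotypes overlapped and all day 12 libraries were above them. Within a genotype, 29.3% of tested genes rose without overlap in WT cells and 35.2% in Def6-/- cells. The Def6-/- day 12 libraries were above the WT day 12 libraries, as for 16.8% of tested genes. The log2 change was 1.26 ± 0.30 in WT cells (limma, adjusted p = 0.0205) and 2.32 ± 0.30 in Def6-/- cells (limma, adjusted p = 0.00116). This is 2.39-fold (95% interval 1.49 to 3.84) and 4.99-fold (3.12 to 8.01). The WT call was kept without WT day 0 replicate 1 (1.11, limma, adjusted p = 0.0369). It was lost without WT day 12 replicate 1 (1.43, limma, adjusted p = 0.0765) and without WT day 12 replicate 2 (1.09, limma, adjusted p = 0.155), in DESeq2 (1.44, adjusted p = 0.0568), and with only the WT groups in the fit (1.26, limma, adjusted p = 0.0887).

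Axin2 (chr11:108920349-108950783, + strand) had 7.11 and 12.4 normalized CPM in WT day 0 libraries and 10.6 and 9.63 in WT day 12 libraries. The Def6-/- libraries had Axin2 at 10.5 and 9.19 normalized CPM at day 0 and 11.5 and 8.54 at day 12. The groups overlapped at every comparison, and all 4 group means lay between 9.74 and 10.1. The log2 change between days was 0.095 in WT cells (95% interval -0.64 to 0.83) and 0.0099 in Def6-/- cells (-0.72 to 0.74), so a change of up to 1.78-fold in WT cells is within the interval. The WT value without WT day 0 replicate 1 was -0.27 and was not called. An antisense gene, Gm11670, overlaps 209 bases of Axin2 exons, and whether reads were counted by strand is not given in the sources used here.

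Lef1 (chr3:131110471-131224356, + strand) was under the filter, with a highest group mean of 0.991 CPM as deposited, and could be fitted only without it. Lef1 had 4.34 and 2.12 normalized CPM in WT day 0 libraries (11 and 6 reads) and 0.861 and 1.26 in WT day 12 libraries (3 and 3 reads). In Def6-/- cells it had 1.5 and 1.36 normalized CPM at day 0 (4 and 4 reads) and 1.23 and 0.427 at day 12 (3 and 1 reads). Day 12 libraries were below day 0 libraries in both genotypes, as were 26.6% of tested genes in WT cells and 32.4% in Def6-/- cells. Fitted without the filter over 16652 genes, the log2 change was -0.99 ± 0.37 in WT cells (limma, adjusted p = 0.12) and -0.45 ± 0.37 in Def6-/- cells (limma, adjusted p = 0.531), and neither was called. From summed reads the day 0 level was 3.10 times the day 12 level in WT cells (counting interval 1.17 to 9.61). At 1 to 11 reads per library, the depth does not separate smaller changes of Lef1. Lef1 exons share 1208 bases with the antisense gene Gm43352.

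In all, limma called 2 of the 9 tested genes higher between days in each genotype and 0 lower. Of all tested genes, 12.7% were called higher and 5.63% lower in WT cells, and 12% higher and 4.79% lower in Def6-/- cells. At an unadjusted p under 0.05, 1 of the 9 genes was lower in WT cells, Wnt4, against 13.6% of all tested genes, and 3 were higher, Wnt16, Tcf7 and Lrp5, against 18.9%. At that threshold 0 were lower in Def6-/- cells, against 11.4%, and 2 were higher, Wnt16 and Tcf7, against 18.6%. edgeR and DESeq2 also called 0 of the 9 lower. Over the 9 genes the log2 change had a median of 0.36 in WT and 0.21 in Def6-/- cells, against -0.0014 and 0.0098 over all tested genes.

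**Figure D3:**
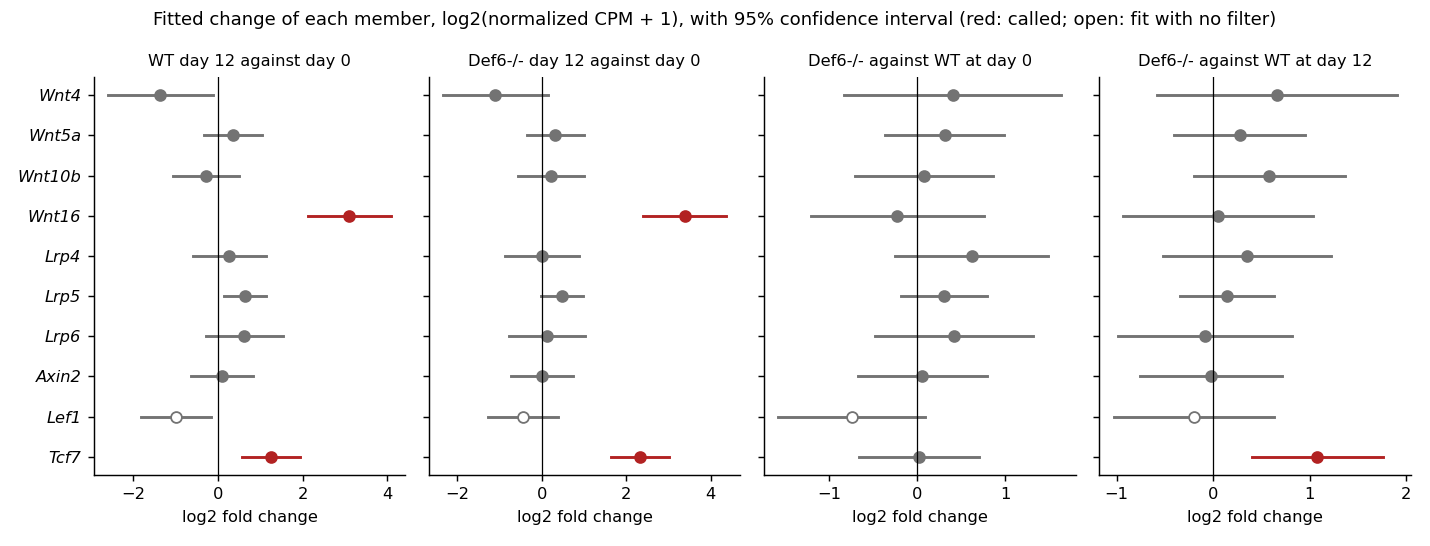
Log2 fold change (x axis) of each gene (y axis) in the 4 comparisons, with 95% intervals. Red marks called genes and the open symbol marks Lef1, fitted without the filter. Intervals of Wnt16 and Tcf7 lie above 0 in both day comparisons, and that of Tcf7 lies above 0 between genotypes at day 12.

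Next, Def6-/- and WT cells were compared at each day. A difference was called here at an unadjusted p under 0.05 with over 1.2-fold, the kind of threshold used in the study, and adjusted p-values are given beside it. At day 0, 0 of the 9 tested genes were called in either direction by limma, edgeR or DESeq2, against 2.3% of all tested genes in limma (0.988% higher and 1.31% lower). With CPM as deposited 72.3% of these calls over all genes were higher, against 43% here, and at day 12 70% against 57.8%. Log2 differences, Def6-/- minus WT, lay between -0.23 for Wnt16 and 0.62 for Lrp4 (95% interval -0.25 to 1.49). Lef1, fitted without the filter, differed by -0.75 (95% interval -1.58 to 0.086), and it was the only one of the 10 whose day 0 groups did not overlap, as for 11.7% of tested genes in this direction and 10.9% in the other. Both WT day 0 libraries weigh on this comparison. Without replicate 1 Wnt16 was called lower in Def6-/- cells (-0.88, limma, unadjusted p = 0.0336, adjusted p = 0.976), as were 2.23% of all tested genes. Without replicate 2 Wnt5a, Lrp4, Lrp5 and Lrp6 were called higher, by 0.76, 1.29, 0.59 and 1.15 log2 units, in a fit that called 17.2% of all tested genes higher and 19.9% lower. For Wnt5a, Lrp4 and Lrp6 the difference was negative without replicate 1.

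At day 12 Tcf7 was the only one of the 9 genes called, higher in Def6-/- cells, against 0.81% of all tested genes called higher and 0.591% lower. Its normalized CPM of 24.8 ± 5.5 in Def6-/- cells stood against 11.2 ± 2.0 in WT cells (SD, n = 2 each). The log2 difference was 1.08 ± 0.30 (limma, unadjusted p = 0.00597, adjusted p = 1.0), or 2.11-fold (95% interval 1.32 to 3.39). It therefore did not pass the correction over all genes, which 1 gene, 0.0081%, passed. Without Def6-/- day 12 replicate 1, the higher of that pair, the difference was 0.86 (limma, unadjusted p = 0.058) and was no longer called. Leaving out a day 0 library cannot change this difference, which uses day 12 libraries only. The summed reads, 119 against 64, gave a ratio of 2.29 (counting interval 1.67 to 3.15).

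The day change of Tcf7 was larger in Def6-/- than in WT cells by 1.06 ± 0.42 log2 units (limma, unadjusted p = 0.0343, adjusted p = 1.0), and 0.696% of all tested genes were called in that direction, 0.421% in the other and 0% at an adjusted p under 0.05. This call was lost without WT day 0 replicate 2 (0.91, limma, unadjusted p = 0.0688), WT day 12 replicate 1 (0.89, limma, unadjusted p = 0.115), Def6-/- day 0 replicate 1 (1.07, limma, unadjusted p = 0.0691), Def6-/- day 0 replicate 2 (1.05, limma, unadjusted p = 0.072) or Def6-/- day 12 replicate 1 (0.84, limma, unadjusted p = 0.131). It was also lost in DESeq2 (1.15, unadjusted p = 0.139). Without WT day 0 replicate 1 it was 1.21 (limma, unadjusted p = 0.0204).

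The other tested genes differed by -0.082 (Lrp6) to 0.66 (Wnt4) log2 units at day 12, and 0 of them were called. Higher in both Def6-/- than in both WT libraries were 5 of the 9 genes, Wnt4, Wnt10b, Lrp4, Lrp5 and Tcf7, against 16.8% of all tested genes, and 0 were lower in both, against 15.9%. Of these, Wnt4 had 1 and 3 reads against 1 and 0, and its libraries with 1 read each differed only by scaling. Wnt10b had 6.98 and 8.11 against 3.73 and 5.86 normalized CPM, a log2 difference of 0.58 (95% interval -0.20 to 1.36). Lrp4 had 64.9 and 65.7 against 49.9 and 51.9, a difference of 0.35 (-0.52 to 1.22). Lrp4 was called when the fit held only the day 12 groups (limma, unadjusted p = 0.021, adjusted p = 0.995). Axin2 differed by -0.026 (95% interval -0.76 to 0.71) and Wnt16 by 0.048 (-0.94 to 1.03).

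Marker genes of other cells moved between the same groups. Adipocyte markers summed to 426 to 436 normalized CPM in Def6-/- day 12 libraries and 311 to 333 in WT day 12 libraries. Of the 6, 4 were called higher, against 0.81% of all tested genes. Most of each sum was Lpl, at 368 and 355 against 278 and 297 normalized CPM. The mean was higher for 5 of the 6, while Pparg had 16.8 against 18.7. Adipoq and Cfd had 0 reads at day 0. They passed the filter only through the Def6-/- day 12 group, where they are high, so their calls are descriptions. For osteoblast markers 1 of 8 was called higher, with sums of 99977 to 115750 against 81362 to 97557. The part of adipocytes and osteoblasts in the Tcf7 result was not tested. Of 6 T cell markers, a list added after the data were seen because Tcf7 and Lef1 are T cell genes, Cd3e, Cd3d, Cd3g and Cd8a had 0 reads in all 8 libraries, and the list had 11 reads in total. Macrophage markers, 0 of 11 called between genotypes at day 12, were called higher at day 12 than at day 0 for 11 of 11 in WT and 10 of 11 in Def6-/- cells, with sums of 229 to 392 and 174 to 279 at day 0 and 3075 to 6159 and 3330 to 3844 at day 12. Between days, 4 of 8 osteoblast markers rose in each genotype. Osteocyte markers rose for 3 of 4 in WT and 4 of 4 in Def6-/- cells, and adipocyte markers for 5 of 6 and 6 of 6. In these lists Bglap, Mepe, Adipoq and Cfd had 0 reads in every day 0 library. Others, among them Dmp1, Phex, Plin1 and Fabp4, had 0 to 8 reads per day 0 library. All these genes passed the filter only through day 12, where they are high, so their calls between days are descriptions. Over all tested genes 12.7% rose in WT and 12% in Def6-/- cells. Of the chondrocyte list 1 of 4 fell in WT cells, and 2 fell and 1 rose in Def6-/- cells. For endothelial markers 1 of 4 passed the filter, called higher at day 12 in WT cells (log2 change 2.0) and not called in Def6-/- cells (1.62), with a difference of the day change that was not called. Muscle markers, 2 of 4 tested, had 0 calls, and 0 of 4 epithelial markers passed the filter. The part of these cells in the day changes of Wnt16 and Tcf7 was not tested.

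Per kilobase of exon, the co-receptors Lrp5 and Lrp6 were the most abundant of the 10 genes in each group. At WT day 12 the level per kb was 17.5 ± 1.1 normalized CPM for Lrp6 and 17.2 ± 1.1 for Lrp5 (SD, n = 2), whose libraries overlapped, followed by 5.57 for Wnt5a, 4.85 for Lrp4, 4.25 for Tcf7, 4.15 for Wnt16, 1.84 for Axin2, 1.41 for Wnt10b, 0.12 for Lef1 and 0.034 for Wnt4. Neighbours whose libraries overlapped in this order were also Lrp4 with Tcf7 and Tcf7 with Wnt16. At Def6-/- day 12 the order began with Lrp5 (19.0 ± 0.4), Lrp6 (16.5 ± 1.1) and Tcf7 (9.46 ± 2.1), and Tcf7 lay above Wnt5a (6.78 ± 1.1) without overlap. At day 0 Tcf7 had rank 7 of the 10 in both genotypes, at 1.55 ± 0.28 per kb in WT and 1.57 ± 0.01 in Def6-/- cells, and Wnt16 had rank 10 in WT cells (0.33 ± 0.34) and rank 9 in Def6-/- cells (0.20 ± 0.04). Overlapping neighbours at day 0 included Lrp6 with Lrp5 in both genotypes, and Axin2 with Wnt10b in both.

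For the 2 genes called between days, the 3 tested genes with the most similar profile over the 8 libraries were found from the root mean square difference of centred log2(normalized CPM + 1). For Wnt16 these were Emid1 (0.209), Agtr1a (0.209) and Trpm3 (0.236). Emid1 had group means of 3.83 and 37.9 normalized CPM in WT cells and 3.53 and 36.9 in Def6-/- cells at days 0 and 12. For Tcf7 they were Cldn1 (0.183), Rhpn2 (0.208) and Hapln4 (0.227), where Cldn1 encodes a tight junction claudin. Cldn1 had means of 0.904 and 3.88 normalized CPM in WT cells and 1.06 and 8.98 in Def6-/- cells. These are descriptions of likeness over samples that share their groups.

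Around the 10 genes, 80 further genes of the Wnt pathway in 7 lists were followed, 3 of them in 2 lists, and 64 passed the filter. Between days 20 were called higher and 9 lower in WT cells, 45.3% of those tested against 18.3% of all tested genes. In Def6-/- cells 17 were called higher and 5 lower, 34.4% against 16.8%. The fit without WT day 0 replicate 1 leaves 1 library in that group and calls more of all tested genes in both genotypes. Counts from it cannot be set against these shares. The lists were chosen with earlier results of these data known, so the shares are descriptive.

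Of the 15 other ligands, 7 had no read in any library and 5 were tested. Wnt5b and Wnt7b were called higher in both genotypes, Wnt5b by 1.19 ± 0.26 log2 units in WT and 1.03 ± 0.26 in Def6-/- cells (limma, adjusted p = 0.0138 and 0.0264). Wnt7b had 0 and 1 reads at WT day 0, 12 and 13 at WT day 12, 0 and 0 at Def6-/- day 0 and 20 and 12 at Def6-/- day 12, and it passed the filter through its day 12 groups. Its ratio of summed reads was 22.8 in WT cells (counting interval 3.74 to 937), and in Def6-/- cells its day 12 level was at least 12.5-fold higher against a floor of 3 reads over the group. Wnt2 and Wnt9a fell in both, Wnt2 from 13 and 5.30 to 1.44 and 0.419 normalized CPM in WT cells and from 6.77 and 4.09 to 0.821 and 0.854 in Def6-/- cells. Wnt16 was thus 1 of 3 tested ligands that rose in both genotypes.

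Of the 13 tested receptors, Fzd1, Fzd2, Fzd4, Fzd8 and Fzd9 rose in both genotypes, and Fzd6 and the pseudokinase receptor Ptk7 fell in both. Fzd9, which is known to act in osteoblasts, rose by 2.09 ± 0.27 log2 units in WT and 2.26 ± 0.27 in Def6-/- cells (limma, adjusted p = 0.00118 and 0.000832). The median over the receptors was 0.65 in WT and 0.74 in Def6-/- cells. The R-spondin list held secreted proteins that raise Wnt receptor levels, their Lgr receptors, and Znrf3 and Rnf43, which are also in the target list. Of its genes, Rspo2, Rspo3 and Lgr5 rose and Lgr4 fell in both genotypes. Medians over the 7 tested genes, Znrf3 among them, were 1.44 in WT and 0.94 in Def6-/- cells. Rspo3 had 25.3 and 92.9 normalized CPM at WT day 0, with replicate 1 the lower, and 191 and 207 at WT day 12 (limma, adjusted p = 0.0484). Lgr5 had 10.7 and 30.4 normalized CPM at WT day 0 and 305 and 416 at WT day 12, and 15.4 and 27.9 against 244 and 319 in Def6-/- cells. Rspo2 rose by 4.06 ± 0.40 log2 units in WT and 3.68 ± 0.40 in Def6-/- cells (limma, adjusted p = 0.000308 and 0.000528).

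The other target genes did not move as 1 group: 4 of 10 tested rose and 1 fell in WT cells, and 2 rose and 0 fell in Def6-/- cells, with medians of 0.74 and 0.42. Lgr5 and Tnfrsf19, a receptor of the TNF family, rose in both genotypes. Of the intracellular components, such as β-catenin and the Dvl proteins, 0 of 17 rose and 1 fell in WT cells, Csnk1e, by 0.74 log2 units, and 0 were called in Def6-/- cells. Of the 3 genes for Wnt secretion and LRP folding, 0 were called in either genotype, with medians of 0.12 and 0.14.

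Secreted antagonists held the largest day changes of the lists. Of 11 tested, 6 rose and 0 fell in each genotype, and Sfrp1, Sfrp2, Sfrp4, Frzb and Dkk1 rose in both. Sfrp2, a decoy that binds Wnt ligands, had 83.3 and 138 normalized CPM at WT day 0 and 3279 and 3026 at WT day 12, and 114 and 195 against 3148 and 3503 in Def6-/- cells. The list's median was 0.71 in WT cells, the value of Dkk3, and 2.68 in Def6-/- cells, the value of Sost. Sost had 0 reads at day 0 and passed the filter only through Def6-/- day 12, so these medians do not compare the genotypes. Gene by gene, the difference of the day change had a median of 0.36. Genes with a group at 0 reads were also taken at their bound, or left out where both groups were at or under 3 reads. The medians were then 1.38 and 3.07, with Sost left out in WT cells only. For Dkk1, an inhibitor that binds Lrp5 and Lrp6, reads numbered 1 and 1 at WT day 0, 20 and 9 at WT day 12, 0 and 0 at Def6-/- day 0 and 20 and 20 at Def6-/- day 12. Against a floor of 3 reads over the group, the Def6-/- day 12 level of Dkk1 was at least 15.6-fold higher.

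**Figure D4:**
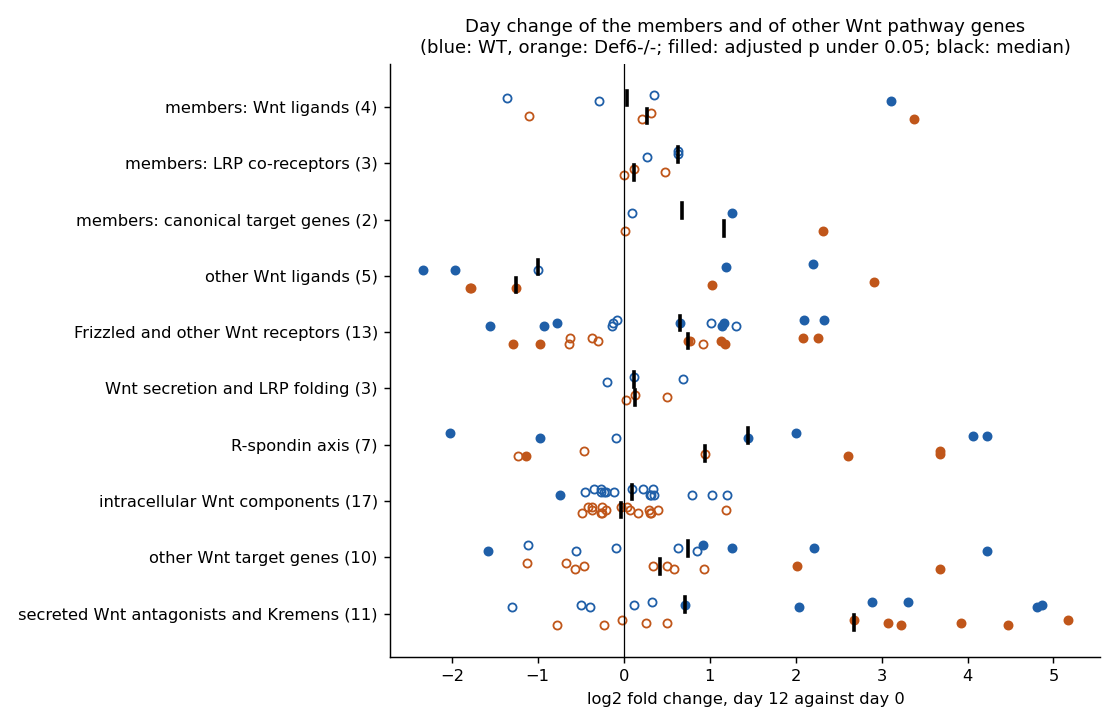
Log2 fold change from day 0 to day 12 (x axis) of the tested genes of each list (y axis, number of tested genes in brackets), blue for WT and orange for Def6-/- cells, filled where the adjusted p was under 0.05, with the median as a black bar. Filled points on both sides of 0 are seen for ligands, receptors and the R-spondin list, while filled antagonists lie above 0 in both genotypes.

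Between genotypes 1 of the 64 genes was called at day 0, against 2.3% of all tested genes. It was Fzd9, lower in Def6-/- cells by 0.63 log2 units (limma, unadjusted p = 0.046, adjusted p = 0.908), a call that was lost without WT day 0 replicate 1. At day 12, 3 were called, all higher in Def6-/- cells, 4.69% against 1.4%, and 1 of the 3 was tested only because of its high group. The first was Sost, which encodes sclerostin, with 14 and 12 reads in Def6-/- libraries and 2 and 0 in WT libraries, a ratio of 16 in summed reads (counting interval 4.0 to 139). Sost was at 0 reads in all 4 day 0 libraries and passed the filter only through the Def6-/- day 12 group, where it is high, so its call is a description. The fitted log2 difference, which depends on the pseudocount, was 2.36 (limma, adjusted p = 1.0). Wif1, a secreted inhibitor, had 12.3 and 13.7 against 6.60 and 4.19 normalized CPM (1.15 ± 0.43, limma, unadjusted p = 0.0245, adjusted p = 1.0). Wnt9a had 9.03 and 9.82 against 5.74 and 5.44 normalized CPM (0.66 ± 0.26, limma, unadjusted p = 0.0299, adjusted p = 1.0).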

How the data were processed

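RNA-seq of 8 libraries, 2 per group, was analysed from 1 table of CPM per library. The authors trimmed reads with fastp, aligned to mm10 (HISAT2), assigned reads to genes (HTSeq) and then deposited CPM values from edgeR, for which the total includes reads outside genes (28.8% to 35.3% of reads were on genes). Tool versions, the annotation and the strand setting are not given in the sources used here. Each CPM value was a whole multiple of what 1 read is worth (tolerance 0.02 reads) for 99.96% of 114821 positive values, and reads were recovered from this. All values of the 10 genes were whole, and 9 other genes held values that were not. Rows outside genes were left out and CPM was computed again per reads on genes with TMM factors (edgeR 4.0.16).

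Genes with a mean of 1 deposited CPM in at least 1 group were kept (12348), and limma 3.58.1 with trend was fitted to log2(CPM + 1) with 4 group means. Tests are two-sided. With 2 libraries against 2, an exact permutation test cannot go below p = 0.333, so p-values rest on the spread shared over genes. Intervals are 95%, and ratios of summed reads have exact binomial intervals that cover counting error only. Alternatives were pseudocounts of 0.5 and 0.1, no filter, CPM as deposited, edgeR quasi-likelihood and DESeq2 1.42.0 on recovered reads, only the groups compared, a replicate block and each library left out. Gene positions and exon lengths are from GENCODE vM21 (96.6% of tested genes matched). Named genes were the 10 members, pathway genes called between days in both genotypes or between genotypes, and the 3 genes most like each member called between days. Members and lists were chosen with earlier results of these data known. The scripts were tested on simulated data.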

Additional observations from a re-analysis of the deposited data

Results flagged for a closer look

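Between genotypes, the log2 fold change over 12 days of culture was unequal at an unadjusted p under 0.05 for the interaction for 1 of the 9 tested members and 2 of the 64 tested pathway genes. The difference, Def6-/- minus WT, was 1.06 log2 units for Tcf7 (limma, unadjusted p = 0.0343), 2.36 for Sost (limma, unadjusted p = 0.00287) and 1.18 for Dkk1 (limma, unadjusted p = 0.0437). The adjusted p was 1.0 for each. Sost was at 0 reads in every day 0 library of both genotypes, so its value is the day 12 difference again and no separate test, and it passed the filter only through the Def6-/- day 12 group. Dkk1 had 1 read in each WT and 0 in each Def6-/- day 0 library and passed the filter through day 12, so its value depends on the pseudocount.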

How the results depend on the processing

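Of 50 results, 10 genes in 5 comparisons, 716 values came from the alternatives. Of these, 644 kept direction and side of the threshold, 43 changed sign, 18 passed the threshold where the reported fit did not and 11 lost it. Many of the 644 could not change direction, since leaving out a library of neither group compared leaves the value as it was. Wnt16 kept its call between days in both genotypes under every alternative run, as did Tcf7 in Def6-/- cells. With each library left out in turn, the number of members called ranged from 1 to 7 in WT cells between days, 2 to 3 in Def6-/- cells between days, 0 to 4 between genotypes at day 0, 0 to 1 at day 12 and 0 to 3 for the difference of the day change. The 7 and the 4 came from leaving out WT day 0 replicate 2. Each of these fits leaves 1 library in a group. Leaving out WT day 0 replicate 1 or replicate 2 also raised the calls over all tested genes in every comparison. The upper ends of these ranges are therefore not specific to the members. In DESeq2 1 member was called between days in WT cells, and 0 for the difference of the day change. With only the groups compared in the fit, 1 was called between days in WT cells, where Tcf7 was lost, 3 between days in Def6-/- cells, where Lrp5 was added, and 2 between genotypes at day 12, where Lrp4 was added. The cause was not tested.

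Values that changed sign, none of them called in the reported fit, are given as log2 ranges over the libraries left out. Between days in WT cells these ranges were -0.089 to 0.80 for Wnt5a, -0.39 to 0.94 for Lrp4, -0.10 to 1.35 for Lrp6 and -0.27 to 0.46 for Axin2. Between days in Def6-/- cells these ranges were -0.11 to 0.53 for Wnt10b, -0.25 to 0.27 for Lrp4, -0.11 to 0.36 for Lrp6 and -0.18 to 0.20 for Axin2. Between genotypes at day 0 these ranges were -0.36 to 1.17 for Wnt4, -0.13 to 0.76 for Wnt5a, -0.24 to 0.40 for Wnt10b, -0.88 to 0.43 for Wnt16, -0.045 to 1.29 for Lrp4, -0.31 to 1.15 for Lrp6, -0.30 to 0.42 for Axin2 and -0.13 to 0.17 for Tcf7. Between genotypes at day 12 these ranges were -0.10 to 0.20 for Wnt16 and -0.22 to 0.17 for Axin2. For the difference of the day change these ranges were -0.51 to 1.03 for Wnt4, -0.49 to 0.41 for Wnt5a, -0.38 to 0.93 for Wnt16, -0.93 to 0.40 for Lrp4, -0.45 to 0.12 for Lrp5, -1.23 to 0.23 for Lrp6 and -0.45 to 0.28 for Axin2. With CPM as deposited the log2 value was -0.076 for Lrp4 and -0.055 for Axin2 between days in Def6-/- cells, 0.034 for Axin2 between genotypes at day 12 and -0.023 for Wnt4 in the difference of the day change. In edgeR and DESeq2, Lrp4 was -0.018 and -0.029 between days in Def6-/- cells, and Wnt5a was 0.036 and 0.028 in the difference of the day change. The edgeR fit of Lef1 without the filter, added after the data were seen, gave -1.62 between days in WT cells (adjusted p = 0.204). CPM as deposited left 38 of 40 ranks of level unchanged.

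Replicate numbers were shared by the groups but same-numbered libraries deviated together only weakly (correlations 0.037 to 0.327, 2 pairs each), so they were not taken as pairs. With a replicate block, Lrp5 in WT cells was called between days (0.64, limma, adjusted p = 0.0493), and no other member's call changed.

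CPM as deposited moved the share of calls that were higher from 43% to 72.3% at day 0 and from 57.8% to 70% at day 12 between genotypes, and its median over all genes lay 0.099 and 0.064 log2 units above 0. Over all genes the calls higher and lower numbered 100 and 73 at day 12, 61 and 24 in DESeq2, and 237 and 222 with no filter. At day 0 they numbered 122 and 162, 2123 and 2459 without WT day 0 replicate 2, and 275 and 275 without replicate 1. With only the groups compared, calls between days numbered 890 and 203 in WT cells (1565 and 695 in the reported fit) and 2265 and 1645 in Def6-/- cells (1487 and 591), and between genotypes 43 and 57 at day 0 and 293 and 261 at day 12. DESeq2 called 35 genes higher at day 0, and for the difference of the day change 36 and 9 against 86 and 52, which were 182 and 144 with no filter. Without the filter 193 genes were called higher at day 0. Depth limits Wnt4, Wnt16 at day 0, Lef1 and Tcf7, whose libraries held as few as 0 to 9 reads, and the 2 libraries per group limit every interval.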
